A study of Mus musculus with 12 samples.

Results

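The genes described here are 40 genes of the endoplasmic reticulum (ER) folding machinery and of the unfolded protein response, taken by name from background knowledge of the pathway, with earlier results of these data known, out of 53715 genes in each deposited table. They comprised 12 chaperones and their cofactors, 5 protein disulfide isomerases, 9 genes of ER-associated degradation, 5 stress sensors and transcription factors, and 9 genes of the translocon and signal peptidase. All 40 were found, all 40 passed the filter on low levels in mES cells and 38 passed it in embryos, where Derl3 and Ern1 did not. RNA had been sequenced in 12 libraries, 2 in each of 6 groups. The mES cells, of the E14 line and wild type by the study's methods, were untreated or received 1 of 3 drugs, and the study asked which kind of stress moves them toward a 2-cell-like state. CX-5461 blocks RNA polymerase I, the enzyme that makes ribosomal RNA, rapamycin blocks the mTOR kinase, and rotenone blocks complex I of the respiratory chain. All 4 mES groups had been grown on mouse embryonic fibroblast feeder cells in LIF and 2i medium, and the feeders were depleted before RNA extraction. The embryos were C57BL/6J, untreated or given CX-5461 between the morula and the blastocyst by the study's account. Each of their libraries came from pooled embryos and pre-amplified cDNA. The study calls replicate RNA-seq libraries biologically independent, and the labels name no separate cultures, litters or batches for them. Every p-value below rests on the spread between the 2 libraries of a group, pooled over all groups of the fit and drawn toward that of genes of similar level.

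Proteins that enter the secretory pathway are folded in the ER by chaperones such as BiP, glycoproteins are held there by the lectins calnexin and calreticulin, and chains that fail to fold are drawn back to the cytosol and degraded. When unfolded chains accumulate, the membrane sensors IRE1 (Ern1), PERK (Eif2ak3) and ATF6 act in parallel arms. IRE1 splices the mRNA of the transcription factor XBP1, PERK slows translation and favours ATF4, and ATF6 is cut to release a transcription factor. XBP1 and ATF6 act on chaperone and degradation genes through promoter elements that carry a CCAAT box spaced from a CCACG box. Gene levels of the kind used here record neither the splicing of Xbp1 mRNA nor the cleavage of ATF6 nor kinase activity.

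Levels were gene values in TPM, transcripts in 1000000 transcripts of the library, which are relative to all other RNA and corrected for transcript length. TPM holds no read counts, so the depth of the libraries is unknown and counting error cannot be stated. The labelled cells were checked against markers. The summed level of 8 pluripotency markers was 3065 to 4663 TPM in the mES libraries, and that of 8 trophectoderm markers was 85.3 to 152.6 TPM there against 4466 to 6346 TPM in embryos. A set of 15 fibroblast markers, which stand for the feeder cells, summed to 1238 and 1553 TPM in control mES cells, 4751 and 5192 TPM with CX-5461, 2561 and 2056 TPM with rapamycin and 4486 and 4791 TPM with rotenone, with none of the 15 at 0 in any mES library. All 15 rose with CX-5461 and all 15 with rotenone, and none passed the test with rapamycin. Their part in the results below was not tested. The pluripotency sum was 4080 and 4553 TPM in control mES cells and 3065 and 3336 TPM with CX-5461, where 3 of the 8 markers fell and 1 rose, and of 7 trophectoderm markers tested 5 rose with CX-5461 and 2 with rotenone. The 11 primitive endoderm markers summed to 505 and 588 TPM in control mES cells and 1255 to 1525 TPM with CX-5461 or rotenone. Of the 9 tested, 7 rose with each of these drugs. In each control library 4 of the 11 were under 1 TPM, and in each library of these drugs 2. The list includes Pdgfra, Sparc, Lama1, Col4a1 and Col4a2, and whether their RNA came from feeder cells was not tested. In embryos the 15 fibroblast markers summed to only 8.63 to 12.1 TPM, with 8 or 9 of them at 0. In bulk RNA a change in the share of a cell type and a change of RNA within its cells cannot be told apart.

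Promoter sequences of some members held elements of the kind named above. Some of these are shown because the changes below are also given for genes with and without them. RefSeq start-site windows (GRCm38.p6, 250 bases before to 50 after the start) were at hand for 32 of the 40 members and 27025 genes in all, and were searched on both strands for ERSE (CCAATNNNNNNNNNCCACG), ERSE-II (ATTGGNCCACG) and the UPRE core (TGACGTGG). ERSE was found in 9 of the 32 members, namely Hspa5, Hsp90b1, Calr, Canx, Dnajc3, Creld2, Pdia6, Syvn1 and Derl3, and in 37 of the 27025 genes (0.137%). ERSE-II was found in Herpud1 and Dnajb11 (0.0444% of all genes) and the UPRE core in Txndc5 (0.714% of all genes). Matches of different elements shared bases in 3 windows, none of them a member's. These matches are descriptions of the letters in the window, not evidence of binding. The segments below, written 5′ to 3′ along the gene's strand with the fixed letters of the element in capitals, are those of Hspa5 (chr2:34772005-34772063, plus strand), Hsp90b1 (chr10:86705513-86705676, minus strand, which holds 2 copies in opposite orientation), Canx (chr11:50325780-50325838, minus strand), Calr (chr8:84847055-84847113, minus strand), Pdia6 (chr12:17266471-17266529, plus strand), Syvn1 (chr19:6046512-6046570, plus strand), Creld2 (chr15:88819500-88819558, plus strand) and, with ERSE-II, Herpud1 (chr8:94386357-94386407, plus strand).
Hspa5: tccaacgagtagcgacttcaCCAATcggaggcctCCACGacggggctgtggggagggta
Hsp90b1: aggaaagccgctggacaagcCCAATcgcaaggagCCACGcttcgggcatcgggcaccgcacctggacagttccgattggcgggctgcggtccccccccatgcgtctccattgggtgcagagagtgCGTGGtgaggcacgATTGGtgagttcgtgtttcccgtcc
Canx: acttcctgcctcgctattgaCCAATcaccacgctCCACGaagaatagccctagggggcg
Calr: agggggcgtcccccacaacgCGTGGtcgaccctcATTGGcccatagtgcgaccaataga
Pdia6: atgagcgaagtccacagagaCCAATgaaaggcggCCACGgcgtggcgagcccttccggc
Syvn1: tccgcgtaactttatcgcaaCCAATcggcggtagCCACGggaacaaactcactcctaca
Creld2: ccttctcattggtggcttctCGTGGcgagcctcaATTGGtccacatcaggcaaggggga
Herpud1: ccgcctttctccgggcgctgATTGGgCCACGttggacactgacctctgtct

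In mES cells CX-5461 raised 26 of the 40 members and lowered 3, against 42.0% of all 17638 tested genes higher and 11.0% lower. The members that rose made up 9 of the 12 chaperones, 3 of the 5 disulfide isomerases, 7 of the 9 degradation genes and 4 of the 5 sensors, while the translocon group split into 3 higher and 3 lower. The median change was 0.42 for the 40 members and 0.43 for all tested genes on the log2(TPM + 1) scale. As TPM, the members' median thus did not stand above that of the whole library. The log2(TPM + 1) scale understates the change of genes at low TPM. By role, the median was 0.84 for degradation genes, 0.68 for chaperones, 0.57 for sensors, 0.44 for disulfide isomerases and 0.06 for the translocon group. A gene was called changed at an adjusted p under 0.05 (limma, two-sided, Benjamini-Hochberg over all tested genes). The direction of the general shift depended on scaling. Of all called genes, 79.3% were higher as TPM, 58.9% after median-ratio scaling and 46.0% after quantile scaling, and these scalings moved the median of all genes by -0.31 and -0.49. The members' calls became 12 higher and 8 lower with the former, against 30.1% and 21% of all genes, so that the members' shares lay close to those of all genes. They became 16 higher and 7 lower with the latter, against 21.7% and 25.5%. The medians of the members and of all genes were 0.07 and 0.12 after median-ratio scaling. After quantile scaling they were 0.26 and -0.07, so there the members' median stood above that of all genes. Canx, Dnajb9, Pdia3, Syvn1, Sel1l, Edem1, Edem3, Eif2ak3 and Ssr3 were the 9 that rose under TPM, both other scalings and removal of the trend with exon length. Without each mES library in turn, 15 of the 26 were still called. Fewer rises were called without CX-5461 replicate 2 or control replicate 1, and fewer falls without control replicate 1, as was so among all genes.

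**Figure D1:**
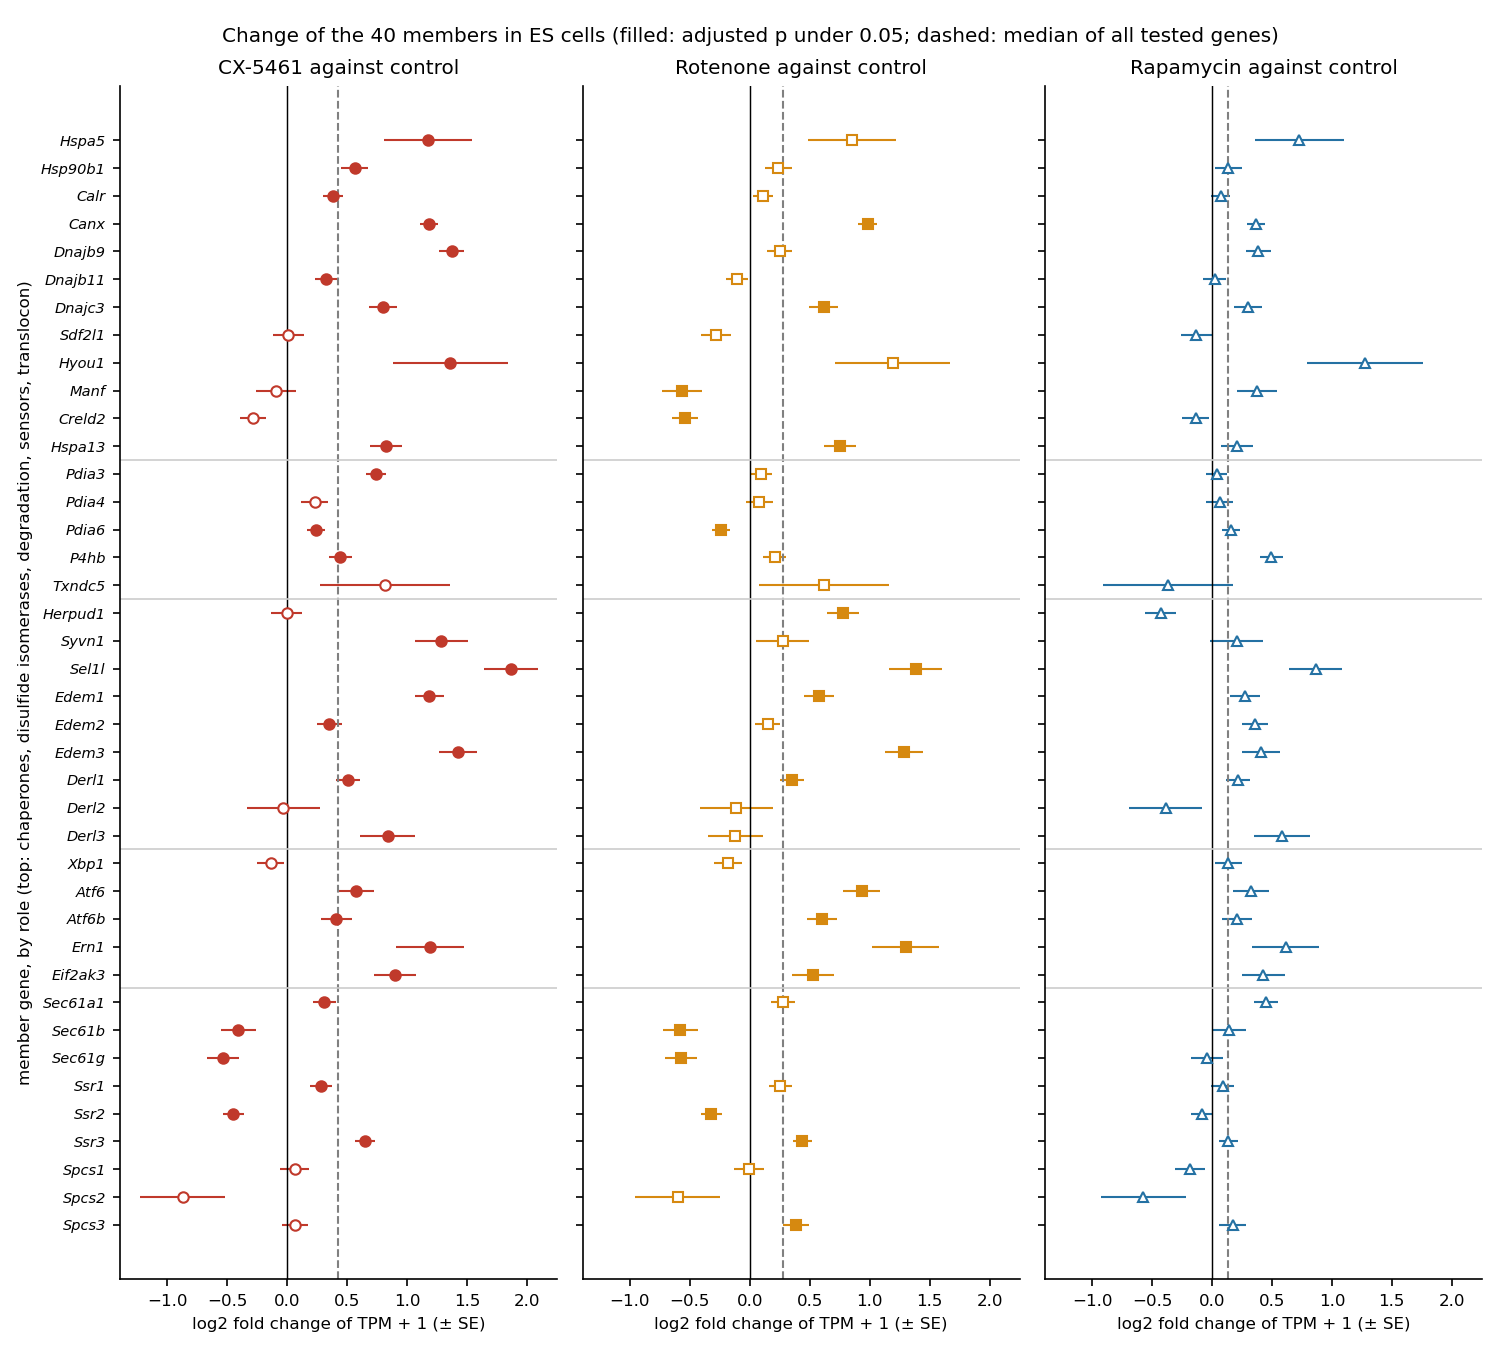
Log2 fold change of TPM + 1 with its standard error (horizontal axis, shared by the 3 panels) for each of the 40 members (vertical axis, by role) in mES cells given CX-5461, rotenone or rapamycin, 2 libraries a group, against the same 2 control libraries. Filled symbols passed an adjusted p of 0.05 and the dashed line is the median of all tested genes. With CX-5461, 26 members lie to the right of 0 with filled symbols and 3 to the left, with rotenone 14 and 6, and with rapamycin none is filled.

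Rotenone, tested against the same control libraries, raised 14 members and lowered 6, against 30.6% of all genes higher and 9.57% lower, and the median of the members was 0.25 against 0.27 for all genes. The rises comprised 3 chaperones, 5 degradation genes, 4 sensors and 2 translocon genes, and the falls 2 chaperones, 1 disulfide isomerase and 3 translocon genes. Of all genes called with rotenone, 76.2% were higher as TPM, 54.9% after median-ratio scaling and 48.9% after quantile scaling. The members' calls became 10 higher and 9 lower under median-ratio scaling, against 21.4% and 17.6% of all genes, and 11 higher and 5 lower under quantile scaling, against 16.9% and 17.7%. The medians of the members and of all genes were -0.01 and 0.06 under median-ratio scaling and 0.17 and -0.02 under quantile scaling. Atf6, Atf6b, Canx, Edem3, Ern1, Herpud1 and Sel1l were the 7 members that rose under both of these scalings, under TPM and after removal of the length trend. Fewer rises were called without rotenone replicate 1 or rotenone replicate 2, and fewer falls without either of these or control replicate 1. Among all genes, too, fewer were called in these fits. Atf6, Canx, Edem3, Herpud1 and Sel1l were called higher without each mES library in turn, and none of the falls was called in all of these fits.

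Rapamycin gave no call among the 40 members, and among all genes 0.0% were higher and 0.0113% lower. At an unadjusted p under 0.05 (limma) 11 members were higher and 1 lower, against 10.4% and 2.89% of all genes, and 3 members were called higher when control replicate 2 was left out, against 1.93% of all genes. Both rapamycin libraries lay above both controls for 23 members and below them for 4, against 29.5% and 11.4% of all genes. The size of the members' changes ranged from -0.57 for Spcs2 to 1.28 for Hyou1.

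Among the chaperones the genes that rose with CX-5461 included some of the most abundant, BiP, the ER Hsp90 and both lectin chaperones. The summed level of the 12 was 2109 and 2559 TPM in control cells, 3547 and 3517 TPM with CX-5461, 2796 and 2673 TPM with rapamycin and 2870 and 2875 TPM with rotenone, and both CX-5461 libraries were above every other mES library. Hspa5 (chr2:34771970-34777547), which encodes BiP, the main Hsp70 chaperone of the ER lumen, was at 166 and 426 TPM in control, 611 and 590.0 in CX-5461, 444 and 439 in rapamycin and 477 and 487 in rotenone libraries. The 6 treated libraries lay above both controls, but control replicate 1 was far below control replicate 2. The change with CX-5461 was 1.17 ± 0.37 (SE, adjusted p = 0.0325), and it was 0.49 without control replicate 1 and 1.85 without control replicate 2. It was not called under median-ratio scaling, at 0.81 (limma, adjusted p = 0.0766), with no filter on low levels (adjusted p = 0.0715) or with only the groups compared fitted (adjusted p = 0.0741). Nor was it called when any CX-5461 or rotenone library was left out. The changes of Hspa5 with rotenone, 0.85 ± 0.37 (SE, adjusted p = 0.104), and rapamycin, 0.73 ± 0.37 (SE, adjusted p = 0.409), did not pass. Without control replicate 2 these were called, at 1.53 and 1.41. The same control library was low for Hyou1 (chr9:44379490-44392369), a nucleotide exchange factor of BiP, at 23.2 and 70.6 TPM in control, 95.9 and 116 in CX-5461, 130.4 and 76.2 in rapamycin and 97.5 and 90.7 in rotenone libraries. Both CX-5461 libraries were above both controls, with a change of 1.36 ± 0.48 (SE, adjusted p = 0.0484) that most alternative settings did not call. These included median-ratio scaling, at 1.00 (limma, adjusted p = 0.0907), quantile scaling, at 1.06 (adjusted p = 0.0717), and removal of the length trend, at 1.13 (adjusted p = 0.0698). Hyou1 was also not called when any mES library but control replicate 2 was left out. Its change was 0.58 without control replicate 1 and 2.14 without control replicate 2.

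Hsp90b1 (chr10:86690209-86705509), the Hsp90 of the ER, measured 386 and 476 TPM in control, 637 and 629.5 in CX-5461, 496 and 447 in rapamycin and 504 and 508 in rotenone libraries. Its CX-5461 libraries stood above all 6 others, with a change of 0.56 ± 0.11 (SE, adjusted p = 0.00568), whereas the change with rotenone was 0.24 ± 0.11 (SE, adjusted p = 0.131). Under median-ratio scaling the CX-5461 change was 0.20 (limma, adjusted p = 0.107) and was not called, and under quantile scaling it was 0.81 (adjusted p = 0.00233). Canx (chr11:50293961-50325673), the membrane lectin calnexin, was at 263 and 261 TPM in control, 579 and 612 in CX-5461, 350.3 and 328 in rapamycin and 521 and 517 in rotenone libraries. CX-5461 and rotenone each raised it by more than the spread of any group, by 1.18 ± 0.077 (SE, adjusted p = 7.33e-05) and 0.98 ± 0.077 (SE, adjusted p = 0.000585), and the rapamycin libraries lay between. Calr, the soluble lectin calreticulin, rose less with CX-5461, by 0.38 ± 0.081 (SE, adjusted p = 0.00714).

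J-domain proteins hand substrates to BiP and start its ATPase cycle. Dnajb9 (chr12:44205559-44210326), which brings misfolded chains to BiP, was at 27.1 and 25.0 TPM in control, 68.1 and 69.8 in CX-5461, 33.8 and 34.9 in rapamycin and 31.5 and 30.8 in rotenone libraries. Its CX-5461 libraries were apart from all others, and its change of 1.37 ± 0.10 (SE, adjusted p = 0.000118) with CX-5461 stood against 0.25 ± 0.10 (SE, adjusted p = 0.0948) with rotenone. Dnajb11 (chr16:22857845-22879634), another J-domain cofactor, showed the smallest called rise of the group: its levels were 133 and 151 TPM in control, 177 and 178 in CX-5461, 142 and 146 in rapamycin and 128 and 135 in rotenone libraries. Only the CX-5461 libraries lay above both controls and both libraries of each other treatment, and the change was 0.32 ± 0.094 (SE, adjusted p = 0.0255). Dnajc3, a J-domain protein that also restrains PERK, and Hspa13, an Hsp70-like protein of microsomes, rose with CX-5461, by 0.80 ± 0.12 (SE, adjusted p = 0.0016) and 0.82 ± 0.13 (SE, adjusted p = 0.00238), and with rotenone, by 0.62 ± 0.12 (SE, adjusted p = 0.00835) and 0.76 ± 0.13 (SE, adjusted p = 0.00635). Creld2 (chr15:88819646-88826683), a secreted ER stress protein, was lower with rotenone: its levels were 132 and 121 TPM in control, 109.8 and 97.1 in CX-5461, 108 and 123 in rapamycin and 87.7 and 85.4 in rotenone libraries. Both rotenone libraries were below all others, with a change of -0.54 ± 0.11 (SE, adjusted p = 0.0107), and the CX-5461 change of -0.29 ± 0.11 (SE, adjusted p = 0.0653) did not pass. Manf, also a secreted ER stress protein, fell with rotenone, with a change of -0.56 ± 0.17 (SE, adjusted p = 0.0337) against -0.093 ± 0.17 (SE, adjusted p = 0.663) with CX-5461. Sdf2l1, a partner of Dnajb11, was called in no comparison.

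**Figure D2:**
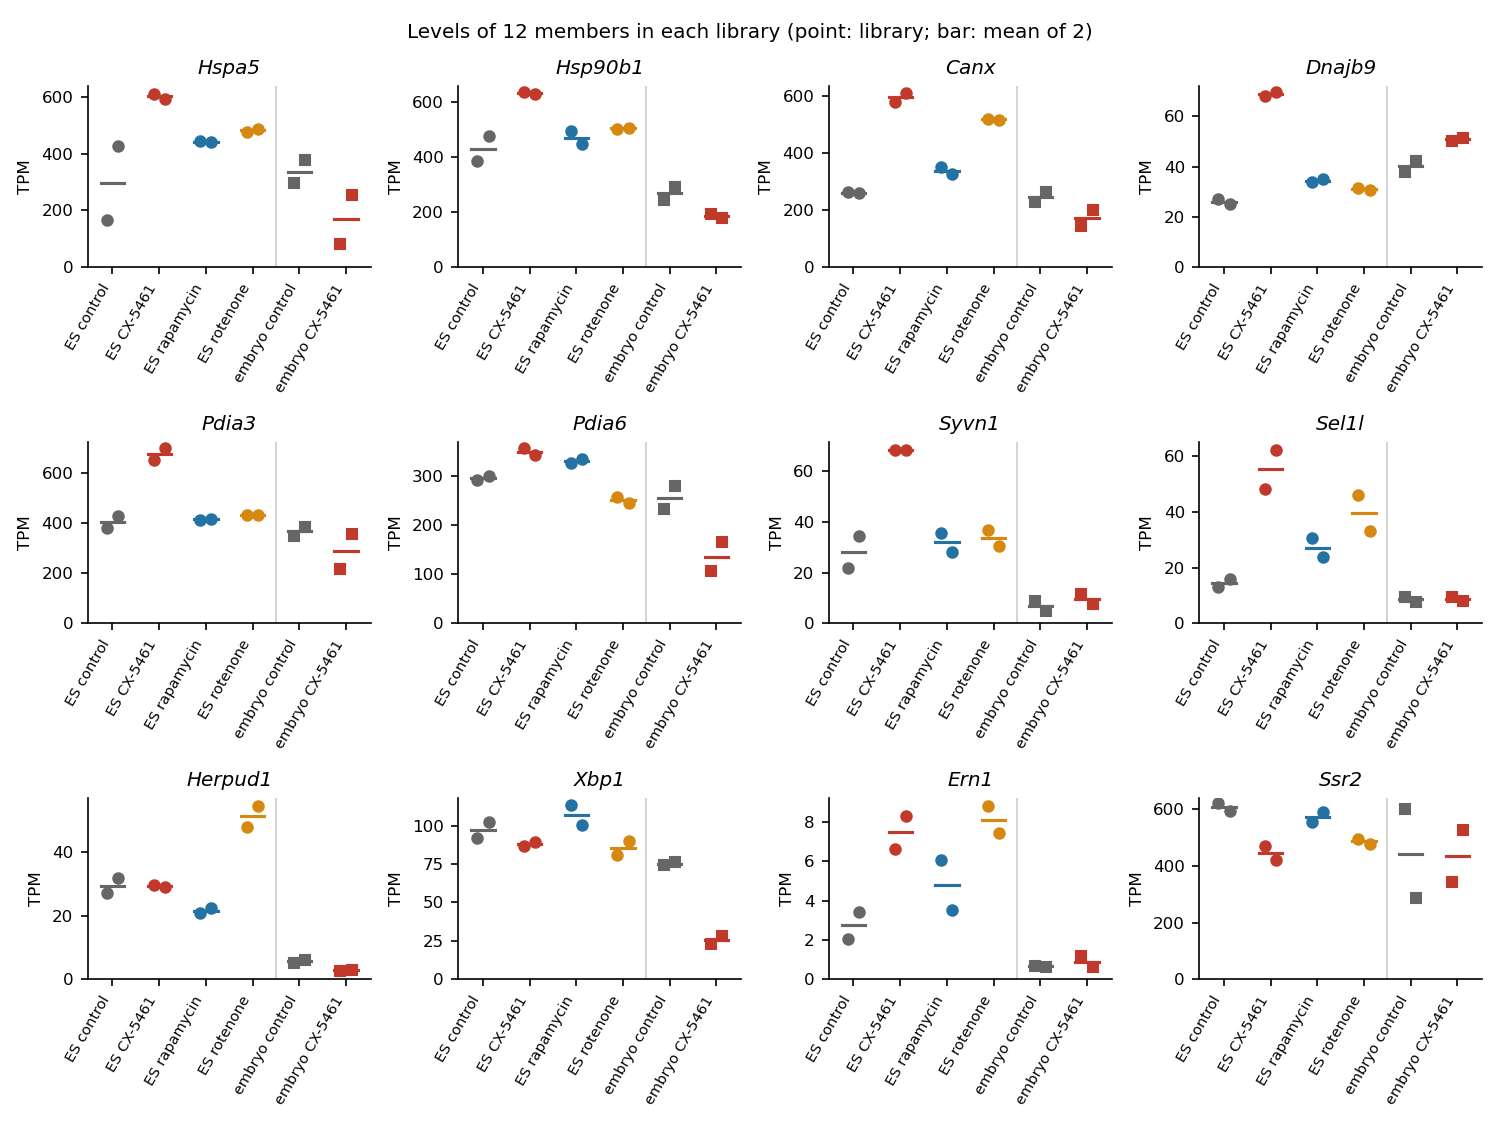
Level in TPM (vertical axis from 0, its own range in each panel) of 12 members in every library, with circles for mES cells, squares for embryos and a bar at the mean of the 2 libraries. The CX-5461 libraries of Dnajb9, Pdia3 and Syvn1 stand above all other mES libraries, Herpud1 is high with rotenone, and control replicate 1 of Hspa5 lies at 166 TPM against 426 TPM in control replicate 2.

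Disulfide isomerases form and rearrange disulfide bonds in the ER lumen. Pdia3 (chr2:121413775-121438687), the isomerase that works with calnexin and calreticulin, was at 380.5 and 428 TPM in control, 650.4 and 699.8 in CX-5461, 414 and 416 in rapamycin and 431 and 432 in rotenone libraries. The CX-5461 libraries were above all 6 others, by 0.74 ± 0.086 (SE, adjusted p = 0.000597) against control, while rotenone left a difference of 0.097 ± 0.086 (SE, adjusted p = 0.395). Pdia6 (chr12:17266545-17284770) was called in both directions on the TPM scale, at 291 and 301 TPM in control, 357 and 342 in CX-5461, 325 and 335 in rapamycin and 256 and 246 in rotenone libraries. Its rise with CX-5461 was 0.24 ± 0.076 (SE, adjusted p = 0.0341) and its fall with rotenone -0.24 ± 0.076 (SE, adjusted p = 0.0442), and in both comparisons the libraries of the 2 groups did not overlap. Under median-ratio scaling the CX-5461 change turned to -0.12 (adjusted p = 0.352), so the opposite directions depended on the scaling. P4hb, the classical disulfide isomerase, rose with CX-5461, by 0.44 ± 0.095 (SE, adjusted p = 0.0075). Pdia4 was not called in any comparison, and Txndc5, for which the replicates of the control, CX-5461 and rotenone groups lay more than 1 log2 unit apart, had a change of 0.82 ± 0.54 (SE, adjusted p = 0.239) with CX-5461.

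Several degradation genes rose by more than 1 log2 unit with CX-5461. Sel1l (chr12:91806043-91849157), the adaptor of the HRD1 ubiquitin ligase complex, was at 13.0 and 15.8 TPM in control, 48.1 and 62.2 in CX-5461, 30.6 and 23.6 in rapamycin and 46.0 and 33.0 in rotenone libraries. All 6 treated libraries lay above both controls, with changes of 1.86 ± 0.22 (SE, adjusted p = 0.000659) for CX-5461, 1.38 ± 0.22 (SE, adjusted p = 0.00467) for rotenone and 0.86 ± 0.22 (SE, adjusted p = 0.249) for rapamycin. Syvn1 (chr19:6046576-6053712) encodes HRD1 itself and was at 21.9 and 34.3 TPM in control, 68.3 and 68.3 in CX-5461, 35.8 and 28.2 in rapamycin and 36.7 and 30.5 in rotenone libraries. The CX-5461 libraries stood apart from the others, which overlapped, and its change was 1.28 ± 0.22 (SE, adjusted p = 0.0031) with CX-5461 and 0.28 ± 0.22 (SE, adjusted p = 0.352) with rotenone.

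The EDEM proteins recognise or trim mannose on misfolded glycoproteins. Edem1 (chr6:108828641-108859356) was at 21.1 and 24.6 TPM in control, 50.2 and 56.2 in CX-5461, 27.8 and 27.8 in rapamycin and 34.1 and 35.0 in rotenone libraries. The libraries of CX-5461 were above those of rotenone, and these above the controls, with changes of 1.18 ± 0.12 (SE, adjusted p = 0.000383) and 0.58 ± 0.12 (SE, adjusted p = 0.0117). Edem3 (chr1:151755371-151822051) was at 8.93 and 11.3 TPM in control, 26.2 and 31.3 in CX-5461, 13.9 and 13.5 in rapamycin and 24.8 and 27.1 in rotenone libraries. The CX-5461 and rotenone libraries overlapped each other and both lay above the remaining libraries, by 1.43 ± 0.16 (SE, adjusted p = 0.000503) and 1.29 ± 0.16 (SE, adjusted p = 0.002) against control. Edem2 (chr2:155701677-155729475) was at 27.2 and 29.2 TPM in control, 37.0 and 35.5 in CX-5461, 36.2 and 36.7 in rapamycin and 30.6 and 32.2 in rotenone libraries. Among the degradation genes it had the smallest called rise with CX-5461, 0.35 ± 0.11 (SE, adjusted p = 0.0286). Its rapamycin libraries lay within the CX-5461 range. Derl1 (chr15:57869502-57892448), a rhomboid-like protein of the retrotranslocation channel, was at 54.3 and 61.7 TPM in control, 82.7 and 82.3 in CX-5461, 68.0 and 66.7 in rapamycin and 75.1 and 73.4 in rotenone libraries. Every treated library was above both controls, and the change passed for CX-5461, 0.50 ± 0.10 (SE, adjusted p = 0.00553), and rotenone, 0.35 ± 0.10 (SE, adjusted p = 0.0301). Derl3 rose with CX-5461 from a low level, by 0.84 ± 0.23 (SE, adjusted p = 0.0202), and Derl2 was called in no comparison. Herpud1 (chr8:94386438-94395377), a scaffold of the HRD1 complex that was singled out here after its values had been seen, was at 27.2 and 31.9 TPM in control, 29.6 and 29.1 in CX-5461, 20.8 and 22.5 in rapamycin and 48.2 and 54.6 in rotenone libraries. Its rotenone libraries were above all others, with a change of 0.78 ± 0.13 (SE, adjusted p = 0.00525), and its CX-5461 libraries lay within the range of the controls, with a change of -0.0046 ± 0.13 (SE, adjusted p = 0.979).

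Of the sensors, all but Xbp1 rose with both CX-5461 and rotenone, comparisons that share their controls. Ern1 (chr11:106394650-106487852), which encodes the kinase and RNase IRE1, was at 2.06 and 3.45 TPM in control, 6.61 and 8.31 in CX-5461, 6.06 and 3.52 in rapamycin and 8.80 and 7.43 in rotenone libraries. Both libraries of CX-5461 and of rotenone were above the other 4, with changes of 1.19 ± 0.28 (SE, adjusted p = 0.0112) and 1.301 ± 0.28 (SE, adjusted p = 0.0125), from a level of only a few TPM. Eif2ak3 (chr6:70844515-70905245), the kinase PERK, was at 12.9 and 16.7 TPM in control, 27.0 and 29.3 in CX-5461, 22.8 and 17.7 in rapamycin and 22.5 and 20.8 in rotenone libraries. CX-5461 gave the 2 highest libraries and a change of 0.90 ± 0.18 (SE, adjusted p = 0.00524), and rotenone one of 0.53 ± 0.18 (SE, adjusted p = 0.0491). For Atf6 (chr1:170704674-170867771) the order was reversed: its levels were 8.84 and 10.8 TPM in control, 14.2 and 15.8 in CX-5461, 13.3 and 11.8 in rapamycin and 20.05 and 19.1 in rotenone libraries. The rotenone libraries were highest, by 0.93 ± 0.15 (SE, adjusted p = 0.00481) against 0.57 ± 0.15 (SE, adjusted p = 0.0178) with CX-5461, and the difference between both treatments, -0.36 ± 0.15 (SE, adjusted p = 0.137), did not pass.

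Atf6b (chr17:34647146-34655074), a relative of Atf6, was at 41.9 and 51.5 TPM in control, 64.8 and 59.1 in CX-5461, 55.4 and 52.1 in rapamycin and 72.6 and 69.5 in rotenone libraries. It was likewise highest with rotenone, with changes of 0.60 ± 0.13 (SE, adjusted p = 0.0114) and 0.41 ± 0.13 (SE, adjusted p = 0.0317). The gene of the transcription factor XBP1, Xbp1 (chr11:5520659-5525893), was at 91.8 and 102 TPM in control, 86.6 and 89.4 in CX-5461, 113 and 100.20 in rapamycin and 80.8 and 90.2 in rotenone libraries. No change of Xbp1 was called on the TPM scale: it was -0.14 ± 0.11 (SE, adjusted p = 0.338) with CX-5461, -0.18 ± 0.11 (SE, adjusted p = 0.235) with rotenone and 0.14 ± 0.11 (SE, adjusted p = 0.559) with rapamycin, although both CX-5461 libraries and both rotenone libraries lay below both controls. It was called lower with CX-5461 under median-ratio scaling, at -0.49 (adjusted p = 0.00608), and quantile scaling, at -0.31 (adjusted p = 0.0413), and with rotenone under median-ratio scaling, at -0.45 (adjusted p = 0.0135).

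The translocon group, which carries chains into the ER and removes their signal peptides, did not move as a block. Its summed level was 1990 and 1867 TPM in control cells, 1765 and 1739 TPM with CX-5461, 1924 and 2059 TPM with rapamycin and 1713 and 1728 TPM with rotenone. Ssr3 (chr3:65379655-65392623), a subunit of the translocon-associated TRAP complex, was at 214 and 233 TPM in control, 342 and 358 in CX-5461, 244 and 247 in rapamycin and 301 and 305 in rotenone libraries. It rose with CX-5461, by 0.65 ± 0.080 (SE, adjusted p = 0.000776), and with rotenone, by 0.44 ± 0.080 (SE, adjusted p = 0.00715), without overlap with the controls. Another TRAP subunit, Ssr2 (chr3:88575876-88588419), was at 622 and 593 TPM in control, 468 and 421 in CX-5461, 555 and 590.3 in rapamycin and 495 and 478 in rotenone libraries. It fell, with changes of -0.45 ± 0.085 (SE, adjusted p = 0.00444) and -0.32 ± 0.085 (SE, adjusted p = 0.0248), and every CX-5461 and rotenone library was below every control and rapamycin library. A further TRAP subunit, Ssr1 (chr13:37966605-37994217), was at 48.3 and 49.1 TPM in control, 59.3 and 59.4 in CX-5461, 51.0 and 52.8 in rapamycin and 59.8 and 56.9 in rotenone libraries. Its rise of 0.28 ± 0.094 (SE, adjusted p = 0.0406) with CX-5461 was the smallest called in the group, and its direction turned under median-ratio scaling (-0.075), quantile scaling (-0.069) and removal of the length trend (-0.054).

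Among the channel subunits, Sec61b (chr4:47474658-47483242) was at 504 and 414 TPM in control, 363 and 326 in CX-5461, 446 and 570.4 in rapamycin and 303 and 308 in rotenone libraries. It fell with CX-5461 and with rotenone, with changes of -0.41 ± 0.15 (SE, adjusted p = 0.0497) and -0.58 ± 0.15 (SE, adjusted p = 0.0204) and no overlap with the controls. Sec61g, a small subunit of the same channel, changed by -0.54 ± 0.13 (SE, adjusted p = 0.0138) and -0.57 ± 0.13 (SE, adjusted p = 0.0162), whereas the pore-forming subunit Sec61a1 rose with CX-5461, by 0.31 ± 0.099 (SE, adjusted p = 0.0345). Of the signal peptidase subunits, Spcs3 rose with rotenone, by 0.39 ± 0.11 (SE, adjusted p = 0.0301), and Spcs1 and Spcs2 were called in no comparison. Exon length moved with these calls. The members that rose with CX-5461 had a median of 4461 exonic bases and the 3 that fell 1864. Among all tested genes the median change was 0.06 for genes under 1000 bases, 0.26 from 1000 to 3000 and 0.57 above 3000. After removal of that trend within each library 23 members were higher and 2 lower. Exons of 14 members, Ssr2 among them at 12.8% of its length, overlap exons of another gene by 0.397% to 16.3% of their length. Whether reads were assigned by strand is not given in the sources used here.

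CX-5461 and rotenone were also compared directly, so that the control levels do not enter the difference. The spread behind the test still came from all mES libraries, the controls among them. With only these 2 groups fitted more members were called, as was so among all genes. Hspa5, at 0.32, had an adjusted p of 0.590 (limma) in the shared fit and 0.0126 with only these groups. Relative to rotenone, 7 members were higher with CX-5461 and 1 was lower, against 17.2% and 4.93% of all genes. The median was 0.19 for the members and 0.12 for all genes. The difference was 1.12 ± 0.10 (SE, adjusted p = 0.000912) for Dnajb9 and 0.43 ± 0.094 (SE, adjusted p = 0.0197) for Dnajb11 among the chaperones. It was 0.64 ± 0.086 (SE, adjusted p = 0.00305) for Pdia3 and 0.48 ± 0.076 (SE, adjusted p = 0.00574) for Pdia6 among the disulfide isomerases. The degradation genes were Syvn1, at 1.01 ± 0.22 (SE, adjusted p = 0.0196), Derl3, at 0.96 ± 0.23 (SE, adjusted p = 0.0269), and Edem1, at 0.61 ± 0.12 (SE, adjusted p = 0.0142). The member that was lower was Herpud1, at -0.78 ± 0.13 (SE, adjusted p = 0.00663). None of the sensors and none of the translocon genes was called, and the changes of the sensors ranged from -0.36 to 0.37. All 12 chaperones had a positive difference. The fibroblast marker sums of these 4 libraries, 4486 to 5192 TPM, were close, with 3 of the 15 markers higher and 2 lower. Of the other markers tested, 4 of 7 of trophectoderm were higher and none lower, 3 of 9 of primitive endoderm were higher and 1 lower, and 1 of 8 of pluripotency was higher and 1 lower, with a median of -0.40 for the last. Their part in the members' differences was not tested. Dnajb9 and Pdia3 remained called without each mES library in turn. Fewer members were called higher when any library of CX-5461 or of rotenone was left out, as was so among all genes. Herpud1 was no longer called without CX-5461 replicate 1, CX-5461 replicate 2 or rotenone replicate 2.

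The members were also grouped by the promoter elements shown above. Of the 9 members with ERSE, 8 rose with CX-5461 and Creld2 did not, with a median change of 0.80. Of the 23 members with a window and no ERSE, 13 rose and 2 fell, with a median of 0.35. Among all tested genes 42.0% rose and 11.0% fell. Of the 8 rises with ERSE, only those of Canx and Syvn1 were called under TPM, both other scalings and removal of the length trend. Without ERSE this was so for Dnajb9, Edem1, Edem3, Eif2ak3, Pdia3, Sel1l and Ssr3. With rotenone the 9 gave 2 rises, Canx and Dnajc3, and 2 falls, Creld2 and Pdia6, with a median of 0.24 against 0.21 for the 23. Of all genes 30.6% were higher with rotenone and 9.57% lower. Relative to rotenone all 9 had a positive difference with CX-5461, from 0.18 to 1.01, of which 3 passed (Syvn1, Pdia6 and Derl3). Of all genes 17.2% were higher in this comparison and 4.93% lower. Dnajb9 and Sel1l, both raised by CX-5461, had none of the 3 elements in the window, which says only that these letters were not found there. Herpud1, with ERSE-II, was the member that was lower with CX-5461 than with rotenone. These counts are descriptions and carry no test.

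**Figure D3:**
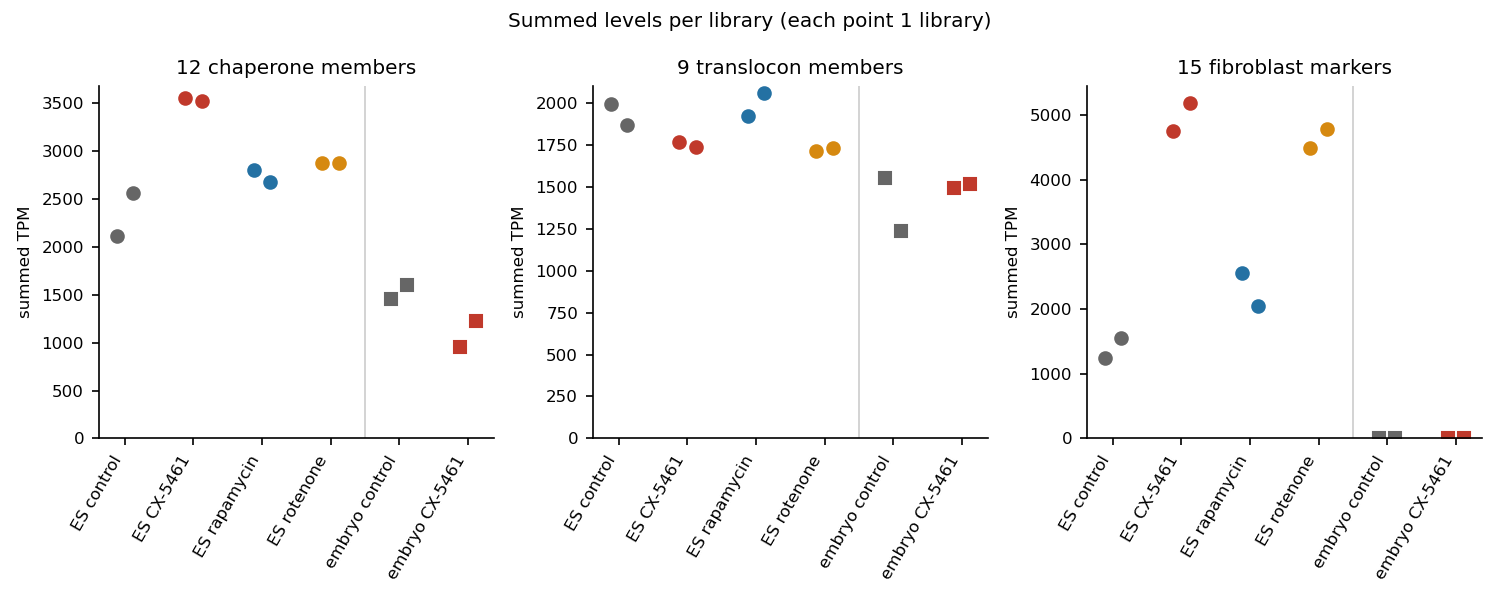
Summed TPM (vertical axis from 0) of the 12 chaperone members, the 9 translocon members and the 15 fibroblast markers in each of the 12 libraries, 1 point per library. The chaperone sum is highest in both CX-5461 mES libraries, at 3547 and 3517 TPM, the translocon sum is lower there than in both control mES libraries, and the fibroblast sum is 4486 to 5192 TPM with CX-5461 or rotenone against 1238 and 1553 TPM in control.

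The calls of 11 further genes, listed here under the PERK arm, differed between CX-5461 and rotenone. Their levels do not measure the activity of PERK. With CX-5461 4 of the 11 rose and 5 fell, with rotenone 6 rose and 1 fell, and with rapamycin none was called. The shares of all genes were 42.0% higher and 11.0% lower with CX-5461 and 30.6% and 9.57% with rotenone, so that the rises with CX-5461 were no larger a share than among all genes. Relative to rotenone 1 was higher and 5 lower with CX-5461, against 17.2% and 4.93%. Ddit3, the transcription factor CHOP, was at 50.1 and 45.6 TPM in control, 131 and 140.3 in CX-5461, 49.1 and 58.2 in rapamycin and 129.6 and 132 in rotenone libraries. It rose by 1.49 ± 0.12 (SE, adjusted p = 0.000126) with CX-5461 and 1.43 ± 0.12 (SE, adjusted p = 0.000597) with rotenone, and its libraries in both groups lay above all others. Atf4, the transcription factor whose translation PERK favours, was at 304 and 342 TPM in control, 229 and 226 in CX-5461, 303 and 299.6 in rapamycin and 378 and 374 in rotenone libraries. Both CX-5461 libraries were below all others. It fell with CX-5461, with a change of -0.50 ± 0.084 (SE, adjusted p = 0.00266) against 0.22 ± 0.084 (SE, adjusted p = 0.074) with rotenone, and the difference between both treatments was -0.72 ± 0.084 (SE, adjusted p = 0.00184). Asns, asparagine synthetase and a target of ATF4, was at 748 and 727 TPM in control, 411 and 453 in CX-5461, 638 and 619 in rapamycin and 591 and 636 in rotenone libraries. Both CX-5461 libraries were below all others, with a change of -0.77 ± 0.083 (SE, adjusted p = 0.000429) against -0.27 ± 0.083 (SE, adjusted p = 0.04) with rotenone.

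Chac1, a glutathione-degrading enzyme of the same list, showed the widest gap, at 23.5 and 21.1 TPM in control, 4.80 and 6.86 in CX-5461, 16.4 and 12.7 in rapamycin and 27.0 and 31.9 in rotenone libraries. Its CX-5461 libraries were below all others, and the difference from rotenone was -2.17 ± 0.20 (SE, adjusted p = 0.000917). The gap of Nupr1, a stress-induced nuclear protein, was -1.51 ± 0.13 (SE, adjusted p = 0.000673), and Atf3, a stress-induced transcription factor, rose most with CX-5461, by 2.43 ± 0.14 (SE, adjusted p = 5.07e-05), and with rotenone, by 1.47 ± 0.14 (SE, adjusted p = 0.000902).

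The remaining lists of the pathway were tested in the same way, with the same shares of all genes (42.0% higher and 11.0% lower with CX-5461, 30.6% and 9.57% with rotenone). Of 10 sensor regulators, 4 rose with CX-5461 and 5 with rotenone and none fell. The largest rises with CX-5461 were Creb3l1, an ER-anchored transcription factor related to ATF6, at 1.85 ± 0.12 (SE, adjusted p = 6.77e-05), and Creb3, another of these, at 1.42 ± 0.12 (SE, adjusted p = 0.000199). Of 18 other degradation genes, 14 rose and 1 fell with CX-5461 and 8 rose with rotenone. Os9, a lectin of the HRD1 complex, rose with CX-5461 by 1.68 ± 0.12 (SE, adjusted p = 8.65e-05). Of 16 other folding genes, 8 rose and 2 fell with CX-5461 and 6 rose and 3 fell with rotenone. The rises with CX-5461 included Ero1b, an oxidase that recharges disulfide isomerases, at 1.20 ± 0.28 (SE, adjusted p = 0.0105). Its level was low, at 1.35 and 1.78 TPM in control and 4.02 and 5.83 in CX-5461 libraries. Of 23 other translocation genes, 8 rose and 3 fell with CX-5461 and 5 rose and 6 fell with rotenone. The shares that rose with CX-5461 in the sensor regulators and the other translocation genes lay below that of all genes. Rapamycin gave no call in any of these lists, and embryos none.

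In embryos no member passed an adjusted p of 0.05 with CX-5461 (limma), and 0.00753% of all 13289 tested genes were called higher and 0.0% lower. At an unadjusted p under 0.05, 8 of the 38 tested members were lower and none higher, against 3.72% and 8.66% of all genes. These 8 were Hspa5, Creld2, Pdia4, Pdia6, Txndc5, Herpud1, Xbp1 and Ssr1. Both CX-5461 libraries were below both controls for 18 members and above them for 7, against 19.2% and 27.6% of all genes. Hyou1, one of the 7, passed the filter on low levels only through the treated group, so its place was fixed by the filter. That no change was called does not show that levels were equal. The median change was -0.35 for the members and 0.05 for all genes. By role the median was -0.87 for disulfide isomerases, -0.41 for chaperones, -0.17 for degradation genes, 0.07 for the sensors tested and 0.00 for the translocon group. The calls depended on CX-5461 replicate 2. Without it 14 members were called lower and 2 higher, against 12.5% and 8.95% of all genes, and without CX-5461 replicate 1 there was 1 lower call. In these fits the lone CX-5461 library is assumed to vary like the controls. The CX-5461 replicates differed by a median of 0.51 log2 units over the members and 0.43 over all genes. Summed pluripotency markers were 739 and 728 TPM in control and 382 and 491 TPM in CX-5461 embryos, and their part in the members' values was not tested.

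Xbp1 had the largest difference of the 38, at 74.1 and 76.1 TPM untreated and 23.1 and 28.2 treated. Its treated embryos lay far below the untreated ones, with a change of -1.52 ± 0.28 (SE, adjusted p = 0.136). It was called without CX-5461 replicate 1, at -1.38, or without CX-5461 replicate 2, at -1.66, and not without either control. For Hspa5 the levels were 297 and 377 TPM untreated and 82.8 and 256 treated. Both CX-5461 libraries were below the controls but a log2 unit or more apart from each other, and the change was -1.19 ± 0.50 (SE, adjusted p = 0.395). It was -0.38 without CX-5461 replicate 1 and -2.0 (adjusted p = 4.14e-05) without CX-5461 replicate 2. Pdia6 was at 232 and 279 TPM untreated and 106 and 165 treated, again without overlap, and the difference was -0.94 ± 0.31 (SE, adjusted p = 0.312). Embryo control replicate 1 had been deposited with a total of 639063 TPM, and without scaling to a common total the changes were -1.20 for Xbp1 and -0.87 for Hspa5.

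Other chaperones lay lower in treated embryos without passing. Hsp90b1 was at 246 and 294 TPM untreated and 194 and 178 treated, a change of -0.53 ± 0.26 (SE, adjusted p = 0.451). Canx was at 227 and 264 TPM untreated and 144 and 199 treated, a change of -0.53 ± 0.28 (SE, adjusted p = 0.479). Creld2 was at 124 and 121 TPM untreated and 55.1 and 86.8 treated, a change of -0.81 ± 0.31 (SE, adjusted p = 0.373). None of these 3 overlapped its controls. Dnajb11 was at 93.8 and 99.95 TPM untreated and 52.3 and 91.3 treated, also without overlap. Dnajb9, in contrast, lay above the controls in both CX-5461 libraries. Dnajb9 was at 38.0 and 42.4 TPM untreated and 50.4 and 51.5 treated, a change of 0.33 ± 0.27 (SE, adjusted p = 0.609), and Hyou1, which passed the filter of 1 TPM in 2 libraries only through the treated group, so that its place above the controls was fixed by the filter, was at 0.610 and 0.627 TPM untreated and 1.54 and 1.47 treated. Pdia3, at 349.7 and 384 TPM untreated and 218 and 356 treated, overlapped its controls.

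The degradation genes with the largest changes in mES cells mostly overlapped their controls in embryos. Sel1l was at 9.57 and 7.71 TPM untreated and 9.44 and 8.13 treated and Syvn1 at 8.70 and 5.02 TPM untreated and 11.6 and 7.44 treated, and in both genes the 2 groups overlapped. Edem1, at 12.7 and 12.8 TPM untreated and 13.9 and 15.5 treated, was slightly above its controls in both CX-5461 libraries, Edem2, at 38.1 and 33.4 TPM untreated and 19.7 and 35.0 treated, and Edem3, at 2.98 and 1.26 TPM untreated and 4.499 and 2.75 treated, overlapped theirs, and Derl1, at 41.3 and 37.3 TPM untreated and 24.1 and 35.9 treated, lay below. Herpud1 was at 5.26 and 6.05 TPM untreated and 2.78 and 3.03 treated, below the controls in both libraries, with a change of -0.77 ± 0.30 (SE, adjusted p = 0.376). Among the remaining sensors, Atf6 was at 4.38 and 3.73 TPM untreated and 4.86 and 4.55 treated, just above its controls. Atf6b was at 3.34 and 1.69 TPM untreated and 3.63 and 2.11 treated, Eif2ak3 at 4.52 and 5.27 TPM untreated and 5.21 and 4.53 treated and Ern1 at 0.700 and 0.610 TPM untreated and 1.18 and 0.633 treated, and in these 3 the groups overlapped. The translocon members were divided here too. Ssr1, at 41.2 and 46.9 TPM untreated and 19.1 and 32.3 treated, and Ssr3, at 148 and 147 TPM untreated and 92.2 and 112 treated, lay below their controls, Sec61b, at 325 and 302 TPM untreated and 507 and 356 treated, above, and Ssr2, at 600.4 and 286 TPM untreated and 342 and 526 treated, had control replicates more than a log2 unit apart.

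**Figure D4:**
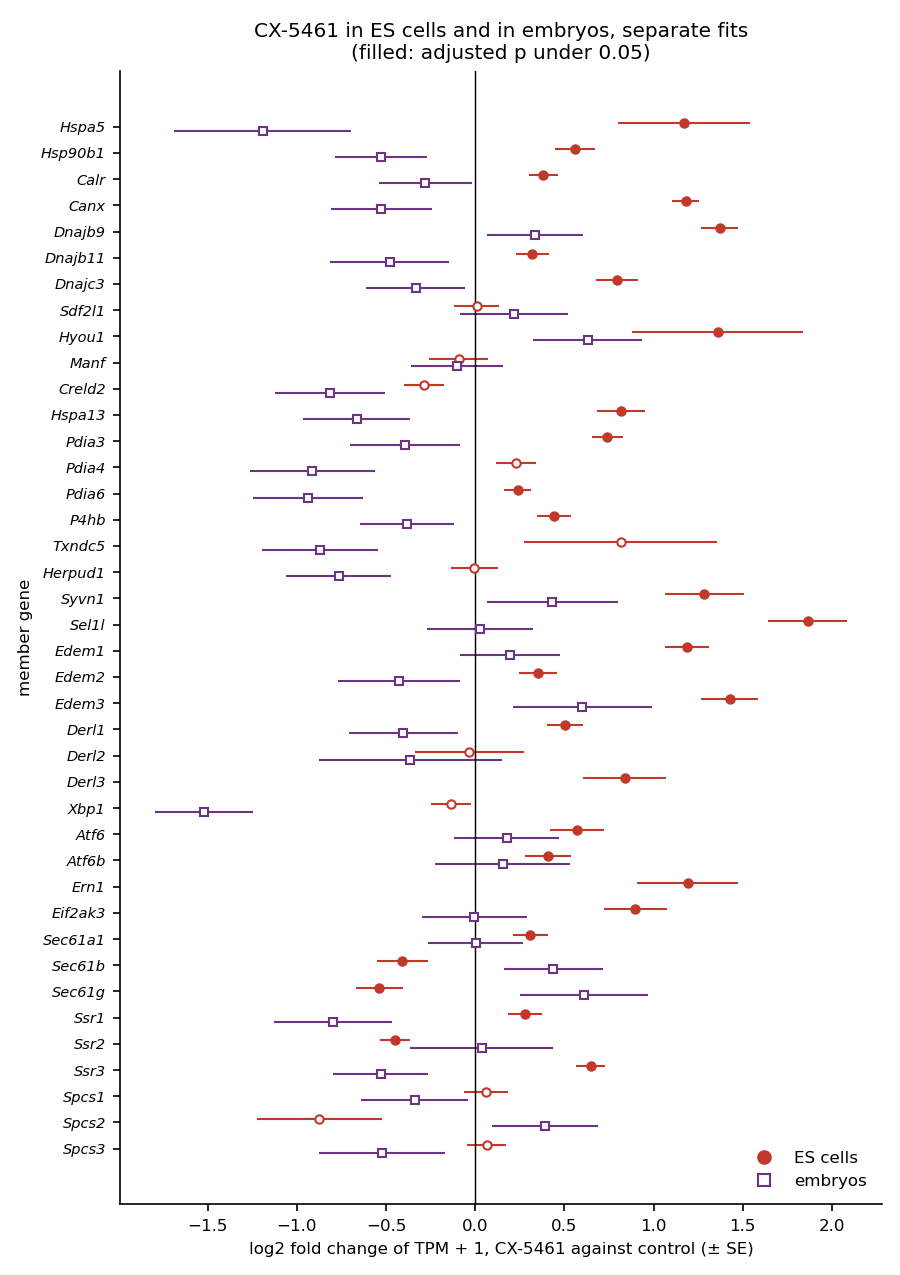
Log2 fold change of TPM + 1 with its standard error (horizontal axis) after CX-5461 for the members (vertical axis), from separate fits of mES cells (circles, 2 against 2 libraries) and embryos (squares, 2 against 2). Filled symbols passed an adjusted p of 0.05, as 29 members did in mES cells and none in embryos. Most chaperones and disulfide isomerases lie to the right of 0 in mES cells and to the left in embryos, where the standard errors are wider, and the difference between both settings was not tested.

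Of the members with ERSE, 8 were tested in embryos, and both CX-5461 libraries lay below both controls for 7 of them, all but Syvn1. Their median change was -0.53. Among the 22 tested members with a window and no ERSE this was so for 8, with a median of -0.35. The share below both controls was 19.2% among all genes tested in embryos.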

How the data were processed

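The authors deposited TPM values per gene in 2 tables of 53715 genes, 1 with 8 mES libraries and 1 with 4 embryo libraries, normalized separately. Per the labels and the study's methods, the upstream steps used Trimmomatic for trimming, HISAT2 for alignment against the mm10 genome, Picard for duplicate removal and StringTie with GENCODE for gene levels, and CASAVA 1.8 is named too. Each library was scaled to 1000000, which matters for embryo control replicate 1 (deposited total 639063). Genes at 1 TPM or more in 2 libraries of a table entered a fit of log2(TPM + 1) by limma 3.58.1 in R 4.3.3 (trended prior, two-sided), all mES groups in one fit and embryos in another, and Benjamini-Hochberg adjusted p-values cover all genes tested. The study's own test used read counts, which were not used here.

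The members, the other pathway lists and the marker lists were chosen with earlier results of these data known. Levels in every library are given for Hspa5, Hsp90b1, the 5 sensors, members called with a log2 change of at least 1, and the most and least changed called member of each role in each comparison. From each other list the genes named are Ddit3, Atf4, Asns and the 2 called genes with the largest change in a comparison. Gene coordinates are from GENCODE M21 on GRCm38, matched by gene ID. For 27 genes whose symbols had been stored as dates the symbol of the gene ID was used. Alternatives covered scaling, pseudocount, filter, prior, threshold, exon length, the replicate block, the groups fitted and each library left out.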

Additional observations from a re-analysis of the deposited data

Results flagged for a closer look

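With CX-5461, 16 of the 38 members tested in both tables had both treated libraries outside the range of both controls in mES cells and, in the other direction, in embryos, against 13.4% of all 11839 genes tested in both. The difference between the settings was not tested, the tables were normalized separately, and no embryo change passed an adjusted p of 0.05 (limma). Among the chaperones, the log2 change was 1.17 in mES cells and -1.19 in embryos for Hspa5, 0.56 and -0.53 for Hsp90b1, 0.38 and -0.28 for Calr, 1.18 and -0.53 for Canx, 0.32 and -0.48 for Dnajb11, 0.80 and -0.34 for Dnajc3, and 0.82 and -0.66 for Hspa13. For the disulfide isomerases it was 0.23 and -0.91 for Pdia4, 0.24 and -0.94 for Pdia6, and 0.44 and -0.38 for P4hb. Derl1, of the degradation genes, was at 0.50 and -0.40. In the translocon group Ssr1 was at 0.28 and -0.80 and Ssr3 at 0.65 and -0.53, whereas Sec61b, at -0.41 and 0.44, Sec61g, at -0.54 and 0.61, and Spcs2, at -0.87 and 0.39, had the opposite order. Pdia4 and Spcs2 were not called in mES cells either. Under median-ratio scaling 12 of the 16 kept their opposite directions, since the mES change turned for Dnajb11 (-0.038), Pdia4 (-0.13), Pdia6 (-0.12) and Ssr1 (-0.075). That of Ssr1 also turned under quantile scaling and with the length trend removed, and the embryo change of Calr turned with the values as deposited (0.042).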

How the results depend on the processing

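The counts of members depended on scaling and on single libraries. With CX-5461 in mES cells, 26 members higher and 3 lower became 12 and 8 under median-ratio scaling, 16 and 7 under quantile scaling, 9 and 0 with a log2 minimum of 1, and 17 higher when only the groups compared were fitted. The shares of all genes were 30.1% and 21% under median-ratio scaling and 21.7% and 25.5% under quantile scaling. With the log2 minimum 4317 of 17638 genes were higher and 380 lower, and with only the groups compared 6567 of 16821 were higher. With rotenone, 14 and 6 became 3 and 0 with the log2 minimum, and 3 lower with no filter, with no trend in the prior or with the length trend removed. Of all 17638 genes 2414 were higher and 359 lower with the minimum. Those lower were 1294 of 32871 with no filter, 1510 of 17638 with no trend and 1364 of 17638 with the length trend removed. For CX-5461 against rotenone, 7 and 1 became 2 and 0 with the log2 minimum and 14 and 2 with only the groups compared, and the lower count was 3 under either scaling and 2 with the length trend removed. Leaving out each library gave 15 to 26 higher and 1 to 3 lower with CX-5461, 0 to 3 higher with rapamycin, 5 to 20 higher and 0 to 5 lower with rotenone, 2 to 10 higher and 0 to 2 lower for CX-5461 against rotenone, and 0 to 2 higher and 0 to 14 lower in embryos. The direction of a called change with CX-5461 in mES cells turned for Dnajb11 (-0.038), Pdia6 (-0.12), Sec61a1 (-0.050) and Ssr1 (-0.075) under median-ratio scaling, for Edem2 (-0.090), Atf6 (-0.12) and Ssr1 (-0.069) under quantile scaling, and for Ssr1 (-0.054) with the length trend removed. The cause was not tested. Over all genes, 7410 higher and 1940 lower with CX-5461 became 3827 and 4495 under quantile scaling, with 3677 lower under median-ratio scaling, and 5394 and 1688 with rotenone became 2987 and 3125, with 3088. In embryos, 1 and 0 became 438 and 31 with the values as deposited. Depth is unknown, so the counting error of low levels such as those of Ern1 and Derl3 cannot be stated.

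With the replicate number as a block, the members were 20 higher and 2 lower with CX-5461, 11 and 5 with rotenone, 6 and 1 for CX-5461 against rotenone, and 0 for rapamycin and embryos. The shares of all genes were 39.2% and 9.54% with CX-5461, 25.5% and 7.61% with rotenone and 13.4% and 3.12% for CX-5461 against rotenone. In embryos they were 0.602% and 0.0903%. Libraries of the same number did not deviate together (correlations of -0.30 to 0.17 in mES cells, 0.05 in embryos), so the numbers were not taken to pair samples.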

Other observations

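TPM allows levels to be set beside each other per length within a library. In control mES cells 18 of the 40 members were at 100 TPM or more on average and 2, Derl3 and Ern1, under 5 TPM. Calr was the highest, at 753 ± 63.2 TPM (SD, n = 2), followed by Ssr2 at 607 ± 20.4, P4hb at 470.5 ± 49.3, Sec61b at 459 ± 63.7, Hsp90b1 at 431 ± 63.7 and Pdia3 at 404 ± 33.6, and the neighbours from P4hb to Pdia3 differed by less than their SDs. The sensors were low beside the chaperones, with Atf6 at 9.82 ± 1.38 and Ern1 at 2.75 ± 0.98. In control embryos, measured in a separate table, 15 members were at 100 TPM or more and 8 under 5 TPM. The highest there were Ssr2, at 443 ± 222.6, whose replicates lay far apart, Pdia3, at 367 ± 24.1, and Hspa5, at 337 ± 56.5.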
